A study of Mus musculus with 17 samples.

Results

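The genes described here are the receptors for fibroblast growth factors (FGFs), a set of FGF ligands and the receptor adaptor Frs2, in mouse retinal progenitor cells (mNRPCs) cultured with and without basic FGF (bFGF). They were chosen by gene symbol, as the receptors for the added bFGF, the ligands that the cells could make themselves and the docking protein next to the receptors. The list holds 10 genes of the 18836 genes listed in at least 1 library: Fgfr1, Fgfr2, Fgfr3, Fgfr4, Fgfrl1, Frs2, Fgf1, Fgf2, Fgf9 and Fgf13. All 10 were listed in at least 3 of the 17 libraries.

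FGFs are secreted proteins that bind receptor tyrosine kinases at the cell surface together with heparan sulfate. The activated receptor phosphorylates the docking protein Frs2, which recruits adaptors that start the RAS-ERK and PI3K-AKT cascades, and ERK in turn switches on inhibitors of the same pathway such as the Sprouty and Dusp genes. In the retina, FGF signalling is known for its part in the specification of the neural retina and in the growth and survival of progenitors and neurons.

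The cells came from the neural retina of adult C57BL/6 mice and are grown in a basic medium (BM) with N2 and B27 supplements. By the paper's methods, routine culture adds bFGF and CHIR99021, an inhibitor of the kinase GSK3, to BM. Media without bFGF thus lacked a factor of the routine culture. The libraries compared were cells in BM alone (BM), with bFGF (B), with CHIR99021 (C) or with both (BC), on days 1, 3, 5 and 7. The remaining library is the day 0 control, whose labels give no treatment. Each treatment and day has 1 library, so p-values below rest on departures from the fitted model and not on replicate cultures. Sources used here do not say how many mice or culture preparations the libraries came from.

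Total expected counts ran from 17571973 to 19428744 per library. Of 11 genes fixed as markers of retinal progenitors, 8 reached an FPKM of 1 in some library (Pax6, Six3, Sox2, Nes, Lhx2, Hes1, Sox9 and Vim), whereas the progenitor transcription factors Rax and Six6 stayed under 0.1 in every library. Markers of other cells at an FPKM of 1 or more in some library were 4 of 8 for Muller glia, 4 of 6 for pericytes and fibroblasts, 2 of 6 for amacrine and bipolar cells, 1 of 6 for pigment epithelium, 1 of 5 for microglia, 1 of 5 for endothelium, and 0 of the 4 astrocyte, 8 photoreceptor and 5 ganglion cell markers. In RNA from whole cultures, fewer cells of a type and less RNA per cell cannot be told apart.

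Fgfr1 was the main FGF receptor of these cells at the RNA level. It took between 91.1% and 98.2% of the summed FPKM of Fgfr1 to Fgfr4 in every library, where FPKM is the number of fragments scaled to transcript length and library total and so allows levels of genes to be compared. Its FPKM was 33.28 on day 0. In BM it was 48.25, 107.01, 96.75 and 119.29 on days 1, 3, 5 and 7, and in C 34.13, 83.22, 76.33 and 86.05. With bFGF it was 43.15, 87.5, 73.62 and 70.59 in B, and 34.64, 67.76, 80.61 and 74.63 in BC. The level thus went up between days 1 and 3 in all 4 media, and BM stood highest on every day. Over days 1 to 7 the libraries with and without bFGF overlapped. On day 7 both libraries without bFGF (86.05 and 119.29) were above both with it (70.59 and 74.63). How many of all genes separate by bFGF on a given day was not counted, here or for the genes below. The gene lies at chr8:25518759-25575718 (GRCm38.p6).

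Fgfr2, the receptor whose splice forms divide epithelial from mesenchymal FGF responses in many tissues, was far lower. Its FPKM was 0.52 on day 0, the lowest of the 17 libraries. In BM it was 1.53, 1.69, 2.94 and 2.82 on days 1, 3, 5 and 7, in C 1.38, 1.22, 1.45 and 1.34, in B 0.71, 1.14, 1.08 and 1.09, and in BC 0.71, 1.81, 1.24 and 1.72. BM on days 5 and 7 stood apart at the top, and the other libraries overlapped. Fgfr2 lies at chr7:130162451-130266808.

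Fgfr3, a receptor best known for restraining growth of cartilage, varied most, in relative terms, among the receptors. Its FPKM was 0.12 on day 0. In BM it was 0.18, 0.64, 2.26 and 1.9 on days 1, 3, 5 and 7, and in C 0.22, 1.51, 5.98 and 6.27. In B it was 0.32, 0.59, 0.46 and 0.22, and in BC 0.13, 0.34, 0.53 and 0.23. On days 5 and 7 every library without bFGF was above every library with it, while on day 1 the 4 media overlapped between 0.13 and 0.32. The expected counts behind these values ran from 10.02 on day 0 and on day 1 of BC to 484.87 on day 7 of C. Fgfr3 exceeded Fgfr2 only in C on days 3, 5 and 7, where the ratio of their FPKM was 1.24, 4.12 and 4.68, against 0.134 to 0.518 in the 8 libraries with bFGF.

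**Figure D1:**
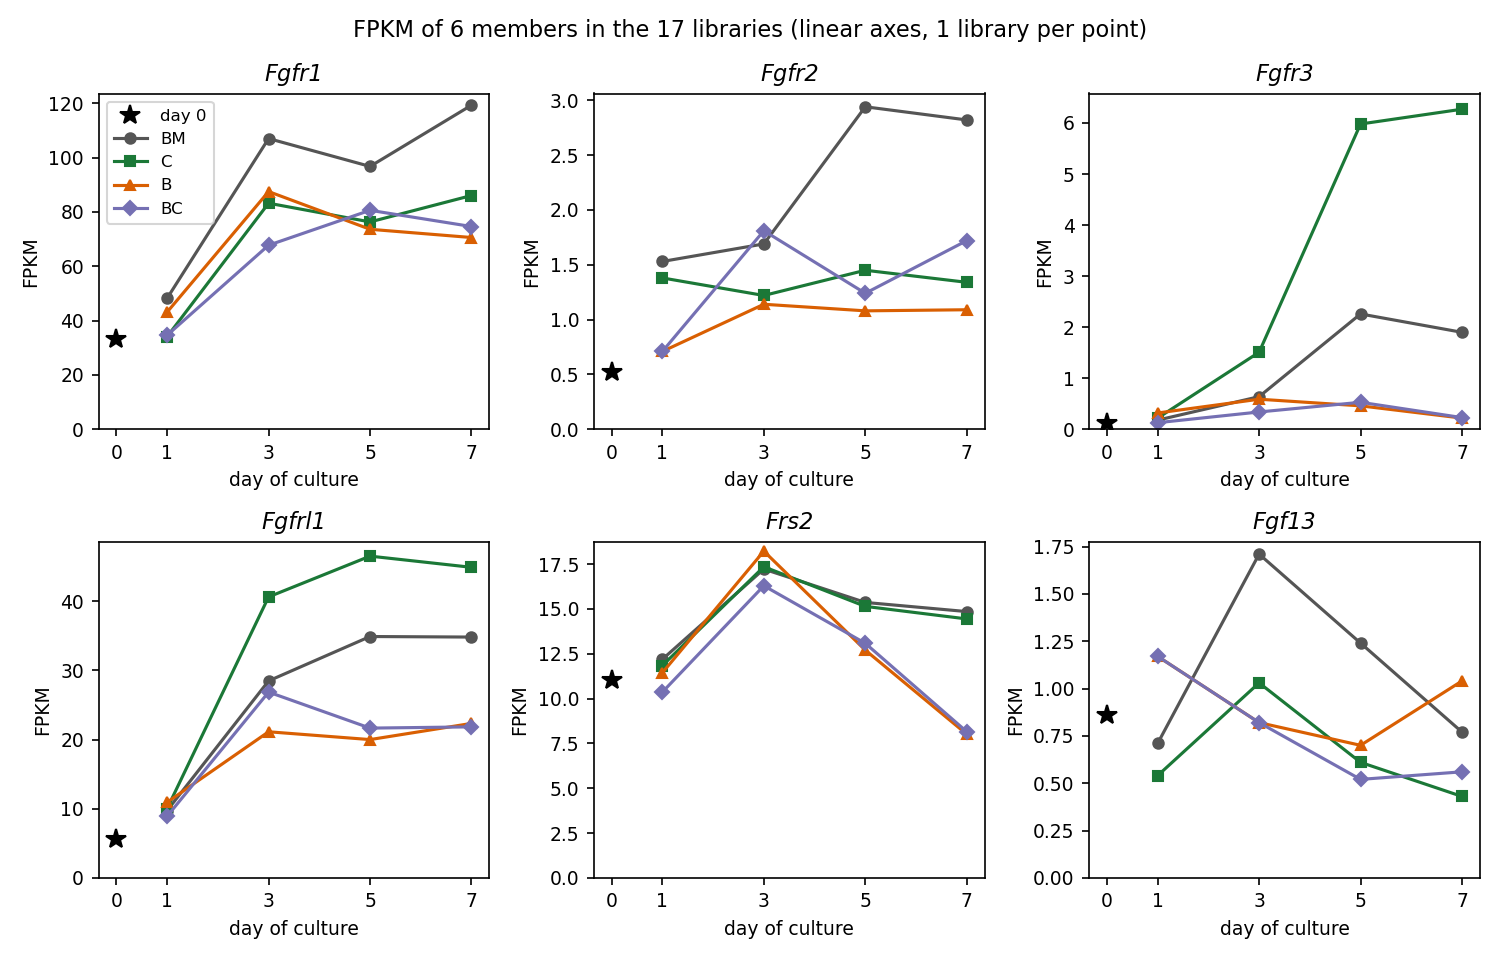
FPKM (vertical axis, linear, from 0) of 6 genes against the day of culture, with 1 library per point, the day 0 control as a star and the media BM, C, B and BC as lines. Fgfr3 reaches 6.27 in C and 1.9 in BM on day 7 and stays at 0.59 or less with bFGF, whereas Fgfr1 lies between 70.59 and 119.29 in all 4 media on day 7.

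Fgfr3 lies at chr5:33721724-33737068 on the forward strand (GRCm38.p6). The RefSeq sequence before its first start is shown because Fgfr3 carried the largest difference between libraries with and without bFGF among the 5 of the 10 genes that were tested by the model of days 1 to 7. The 200 bases at chr5:33721474-33721673 end where the exon of an upstream GENCODE transcript of Fgfr3 begins, and capitals mark matches to the SP motif GGGCGG on either strand.
Fgfr3: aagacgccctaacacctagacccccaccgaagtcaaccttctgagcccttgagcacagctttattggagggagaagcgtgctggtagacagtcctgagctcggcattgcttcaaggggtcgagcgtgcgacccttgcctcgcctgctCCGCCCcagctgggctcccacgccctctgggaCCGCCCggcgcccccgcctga
The full window of 250 bases held 3 matches to GGGCGG and none to TGANTCA (AP-1), CCGGAA (ETS), CTTTGA (TCF/LEF) or CACGTG (E-box). Of 32851 RefSeq windows of 250 bases, 32.7% held GGGCGG, 6.75% TGANTCA, 12.0% CCGGAA, 13.8% CTTTGA and 6.02% CACGTG on either strand, so GGGCGG is common. A match describes letters and not a bound site. A transcript on the opposite strand, G630022F23Rik, overlaps the 5′ end of Fgfr3 in GENCODE, and the strand setting of the counting is not given in the sources used here, so reads of both could not be separated.

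Fgfr4 was close to absent from the reads. It was listed in 10 of 17 libraries with 20 expected counts in all and at most 5 in a library, and its FPKM did not exceed 0.09. No order of its levels can be read from such counts.

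Fgfrl1, a receptor-like protein that binds FGFs but has no tyrosine kinase domain, was well expressed. Its FPKM was 5.67 on day 0, the lowest of the 17. In BM it was 9.74, 28.49, 34.91 and 34.83 on days 1, 3, 5 and 7, in C 10.03, 40.64, 46.54 and 44.92, in B 10.94, 21.13, 20 and 22.34, and in BC 8.91, 26.87, 21.66 and 21.84. From day 3 on, all libraries without bFGF (28.49 to 46.54) were above all libraries with it (20 to 26.87), and on day 1 the 4 media lay between 8.91 and 10.94. By FPKM the median gene was lower with bFGF too. Its log2 difference was -0.389 to -0.501 in the pairs of days 5 and 7, among genes with a mean FPKM of 1 or more. The FPKM of Fgfrl1 relative to that of Fgfr1 was 0.170 on day 0 and highest in C on day 5, at 0.610.

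Fgfrl1 lies at chr5:108694229-108706950 on the forward strand. Its upstream window is shown for comparison with that of Fgfr3, since both were lower with bFGF. The sequence is the RefSeq one at chr5:108693979-108694228 (GRCm38.p6), with capitals at motif matches.
Fgfrl1: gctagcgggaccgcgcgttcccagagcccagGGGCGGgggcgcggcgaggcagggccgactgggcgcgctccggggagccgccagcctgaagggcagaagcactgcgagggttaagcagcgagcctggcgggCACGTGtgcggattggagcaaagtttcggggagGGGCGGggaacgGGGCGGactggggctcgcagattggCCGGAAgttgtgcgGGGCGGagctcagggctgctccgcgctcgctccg
It held 4 matches to GGGCGG, 1 to CCGGAA and 1 to CACGTG, and none to TGANTCA or CTTTGA. Windows were found for 8 of the 10 genes, and Fgfr1 was not among those.

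Frs2, the docking protein that the activated receptors phosphorylate, was at an FPKM of 11.06 on day 0. In BM it was 12.19, 17.22, 15.36 and 14.85 on days 1, 3, 5 and 7, in C 11.84, 17.35, 15.14 and 14.44, in B 11.44, 18.22, 12.7 and 8.01, and in BC 10.36, 16.29, 13.08 and 8.15. All 4 media peaked on day 3. On day 7 both libraries with bFGF were at the lowest levels of the 17, and both without it were above 14. Fgfrl1 was below Frs2 on day 0 and in each medium on day 1, and above it in all 12 libraries from day 3 on. Frs2 lies at chr10:117070127-117148474.

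The ligand genes gave few reads. Fgf2, the gene of bFGF itself, was listed in 10 libraries with 16 expected counts in all and an FPKM of at most 0.17, so little of its messenger RNA was found in any medium. Fgf1, the other prototype ligand, was listed in 16 libraries with 97.64 expected counts and an FPKM of at most 0.17. Fgf9, a ligand used by many epithelia, was listed in 3 libraries with 6.32 expected counts. The added bFGF is a protein and is not seen by RNA-seq.

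Fgf13 belongs to the FGFs that stay inside the cell and bind voltage-gated sodium channels. Its FPKM was 0.86 on day 0. In BM it was 0.71, 1.71, 1.24 and 0.77 on days 1, 3, 5 and 7, in C 0.54, 1.03, 0.61 and 0.43, in B 1.17, 0.82, 0.7 and 1.04, and in BC 1.17, 0.82, 0.52 and 0.56. C was below BM on each day, and on day 1 both libraries with bFGF were above both without it.

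**Figure D2:**
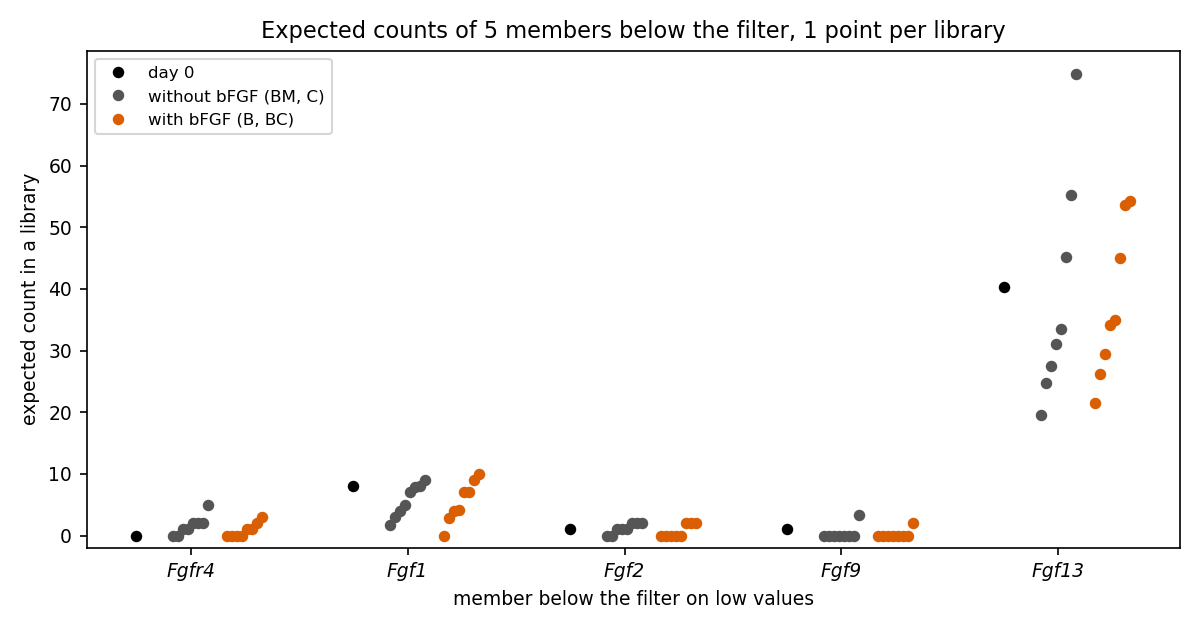
Expected count per library (vertical axis) of the 5 genes with a mean FPKM under 1, with 1 point per library for day 0, without bFGF (BM and C) and with bFGF (B and BC). Fgfr4, Fgf1, Fgf2 and Fgf9 have at most 10 expected counts in any library, and Fgf13 has 19.6 to 74.88.

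The question of which of these genes differ with bFGF was tested over days 1 to 7 with edgeR's quasi-likelihood test. The model had terms for the day, for CHIR99021 and for bFGF, and p-values were adjusted by the Benjamini-Hochberg method across the 11272 genes whose mean FPKM reached 1. Of the 10 genes, 5 passed that filter: Fgfr1, Fgfr2, Fgfr3, Fgfrl1 and Frs2. Fgfr3 passed only through the libraries without bFGF, where its mean FPKM was 2.37 against 0.352 with it. Fgfr3 was lower with bFGF than without it, at a log2 fold change of -1.79 (SE 0.53, adjusted p = 0.00990). It was lower in 7 of 8 same-day pairs of libraries with and without bFGF. Fgfrl1 was lower too, at -0.30 (SE 0.11, adjusted p = 0.0250), also in 7 of 8 pairs.

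These 2 of 5 tested genes were called lower and 0 higher, where 33.9% of all genes tested were called lower and 34.6% higher. Fgfr1 (log2 fold change -0.02, adjusted p = 0.845), Fgfr2 (-0.31, adjusted p = 0.234) and Frs2 (-0.02, adjusted p = 0.835) did not pass. The counts of pairs, taken on FPKM, do not set the called genes apart from these. Frs2 was also lower with bFGF in 7 of 8 pairs, and Fgfr1 and Fgfr2 each in 6 of 8. By FPKM the median gene was lower in every pair, with a log2 difference of -0.0341 to -0.501. The Fgfrl1 call was lost without BC on day 5 (adjusted p = 0.0592) or BC on day 7 (adjusted p = 0.0541), and the Fgfr3 call by an exact sign-flip permutation test over the 8 pairs (adjusted p = 0.0626).

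The scaling of libraries matters for the genes near 0. The main fit used TMM factors, which set most genes level, and these were 1.08 to 1.13 without bFGF and 0.754 to 0.816 in B and BC on days 5 and 7. With library totals alone, the median log2 fold change of all genes tested was -0.29, and Fgfr1 (-0.31, adjusted p = 0.00907), Frs2 (-0.31, adjusted p = 0.0189) and Fgfr2 (-0.60, adjusted p = 0.0301) were also called lower. Fgfr1 was called lower too with quantile-normalized FPKM in limma (-0.30, adjusted p = 0.0124), where the median of all genes was -0.00294, and Fgfr2 was then at 0.13. FPKM values carry the same shift.

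The difference with bFGF grew over the days for Fgfr3. On day 1 its log2 fold change was 0.30 (SE 0.80), and 0 of the 5 genes were called by edgeR, where 6.21% of genes were called higher and 4.46% lower. At an unadjusted p under 0.05 in either direction there was 1 of the 5, beside 2979 of the 11272 genes tested. It was Fgfr2, which stood lower (-0.97, SE 0.39, adjusted p = 0.135). No other setting or tool called one of the 5 on that day. On day 3, Fgfrl1 alone was called, lower by -0.43 (SE 0.16, adjusted p = 0.0376), where 25% of genes were called lower and 25.4% higher, and Fgfr3 was at -1.01 (adjusted p = 0.157).

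On day 5, Fgfr3 was lower with bFGF than without it, at -2.56 (SE 0.53, adjusted p = 0.000722). Fgfrl1 was lower too, at -0.51 (SE 0.16, adjusted p = 0.0111), where 38.6% of genes were called lower. Frs2 was called higher by 0.20 (SE 0.08, adjusted p = 0.0441), where 37.2% of genes were. That call turned to -0.24 (adjusted p = 0.0151) with library totals alone, and was lost without any of 12 of the 16 libraries. The Fgfrl1 call of day 3 was lost without C, B or BC of that day (adjusted p = 0.355, 0.169 and 0.0621), and that of day 5 without C or BC of that day (adjusted p = 0.0864 and 0.0763).

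On day 7, Fgfr3 was lower with bFGF than without it, at -3.52 (SE 0.59, adjusted p = 0.000135). Frs2 was lower too, at -0.31 (SE 0.09, adjusted p = 0.00504), where 39.6% of genes were called lower. None of the 5 was among the 38.8% called higher. By FPKM, Fgfr3 in B was 0.116 of its level in BM, and in BC 0.0367 of its level in C. Fgfrl1 was at -0.34 (SE 0.16, adjusted p = 0.0662), and it passed the threshold under 11 of 25 alternatives, among them library totals alone (-0.88, adjusted p = 0.000246), quantile-normalized limma (-0.54, adjusted p = 0.00972), a minimum FPKM of 5 (-0.47, adjusted p = 0.0169) and leaving out day 1 (-0.35, adjusted p = 0.0331). Fgfr1 was at -0.03 and Fgfr2 at 0.06, with adjusted p of 0.858 and 0.891. Fgfr1 was called lower on that day with library totals alone (-0.57, adjusted p = 0.00213) and with limma, at -0.48 without (adjusted p = 0.00839) and -0.58 with quantile normalization (adjusted p = 0.00487).

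The interaction of bFGF with the day was itself tested. It passed for Fgfr3 (adjusted p = 0.0146) and Frs2 (adjusted p = 0.00980), 2 of the 5 genes, where 76.3% of all genes tested passed. For Fgfr3 the call was lost without BC on day 7 (adjusted p = 0.0561) and with quantile-normalized FPKM in limma (adjusted p = 0.0965). It did not pass for Fgfrl1 (adjusted p = 0.112), Fgfr2 (0.222) or Fgfr1 (0.362). For Fgfrl1 it passed with library totals alone (adjusted p = 0.00826), with limma on log2(FPKM + 1) (adjusted p = 0.00920) and on log2(FPKM + 0.1) (adjusted p = 0.0101), and without BC on day 1 (adjusted p = 0.0211).

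**Figure D3:**
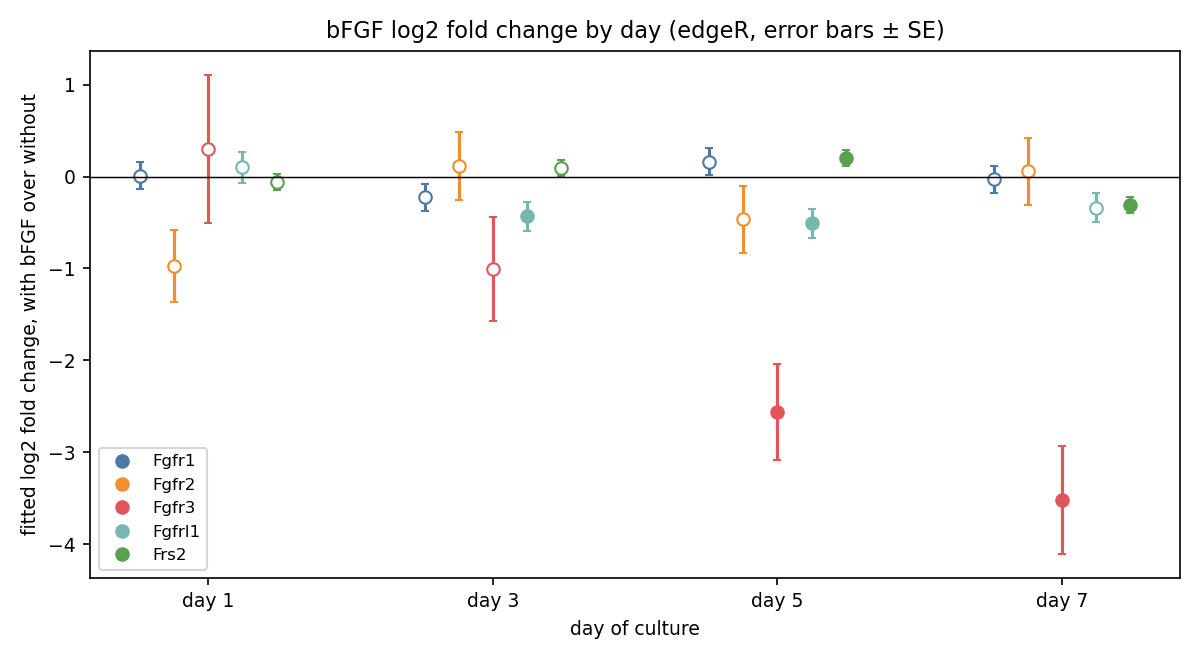
Fitted log2 fold change with bFGF over without (vertical axis) of the 5 genes that passed the filter, on days 1, 3, 5 and 7, as points with standard errors from edgeR, filled where the adjusted p is under 0.05. Fgfr3 runs from 0.30 on day 1 to -3.52 on day 7, and the other genes stay between -0.97 and 0.20.

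Marker genes of other cell types were also set beside bFGF, without a test. Summed FPKM of the 6 pericyte and fibroblast markers was 37.1 to 513.9 in the 8 libraries without bFGF and 9.71 to 43.2 in the 8 with it. The sum was led by Acta2 and Pdgfrb, with Lum under 0.1 in all and Rgs5 at 0.1 or less. The 8 Muller glia markers summed to 31.5 to 272 without and 30.2 to 162 with bFGF, with Slc1a3 under 0.1 throughout and Rlbp1 at 0.13 or less. These sums overlapped, and members of the list went both ways. The 5 endothelial markers summed to 0.14 to 1.42 without and 0.03 to 0.24 with bFGF, near the floor, with Pecam1, Cdh5 and Tek under 0.1 in all. Whether such cells were present, or had a part in the Fgfr3 and Fgfrl1 differences, was not tested.

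The change from day 1 to day 7 differed by gene. Without bFGF, 4 of the 5 genes were called higher on day 7, where 32.3% of all genes tested were called higher and 31.5% lower: Fgfr3 rose by 4.24 (SE 0.60, adjusted p = 5.76e-05), Fgfrl1 by 2.0 (SE 0.17, adjusted p = 8.39e-07), Fgfr1 by 1.27 (SE 0.15, adjusted p = 1.18e-05) and Frs2 by 0.26 (SE 0.08, adjusted p = 0.0171). The Frs2 call was lost without BM or C of either day, with an adjusted p of 0.107 to 0.116. Fgfr2 was at 0.44 (SE 0.36, adjusted p = 0.298).

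With bFGF, 3 of the 5 were called higher and 0 lower, where 35.8% of genes were called higher and 39.5% lower. Fgfrl1 rose by 1.56 (SE 0.17, adjusted p = 3.47e-06), Fgfr2 by 1.47 (SE 0.39, adjusted p = 0.00463) and Fgfr1 by 1.23 (SE 0.15, adjusted p = 8.47e-06). The Fgfr2 call was lost with limma on log2(FPKM + 1) (0.48, adjusted p = 0.0987) and on log2(FPKM + 0.1) (0.86, adjusted p = 0.0560). It was also lost without BC on day 7 (0.93). Fgfr3 was at 0.42 (SE 0.79, adjusted p = 0.643) and Frs2 at 0.01 (SE 0.09, adjusted p = 0.929). For Fgfr3 the difference between these 2 changes, a contrast of its own, was -3.82 (SE 1.03, adjusted p = 0.00584).

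CHIR99021 was next set against its absence over days 1 to 7. edgeR called 0 of the 5 genes, where 0.337% of all genes tested were called in either direction. At an unadjusted p under 0.05 there was 1 of the 5, beside 1126 of the 11272 genes tested. It was Fgfr1, with a log2 fold change of -0.27 (SE 0.09, unadjusted p = 0.0104, adjusted p = 0.277), lower in 6 of 8 pairs. None of the 5 was called by DESeq2, limma or the exact sign-flip permutation test either. Fgfr3 was at 0.49 (SE 0.51), Fgfrl1 at 0.17 (SE 0.11), Fgfr2 at -0.14 (SE 0.22) and Frs2 at -0.04 (SE 0.08).

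The CHIR99021 ratios were also taken apart with and without bFGF. Fgfr3 in C was 1.22, 2.36, 2.65 and 3.3 times its FPKM in BM on days 1, 3, 5 and 7, and in BC 0.406, 0.576, 1.15 and 1.05 times that in B. Fgfr2 in C was 0.902, 0.722, 0.493 and 0.475 of BM, and in BC 1, 1.59, 1.15 and 1.58 times B. The interaction of bFGF and CHIR99021 was -1.98 for Fgfr3 (SE 0.85, unadjusted p = 0.0375) and 0.99 for Fgfr2 (SE 0.37, unadjusted p = 0.0197), and neither passed the adjustment over all genes (adjusted p = 1.00 for both), where edgeR called 0.00887% of genes, which is 1 gene.

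**Figure D4:**
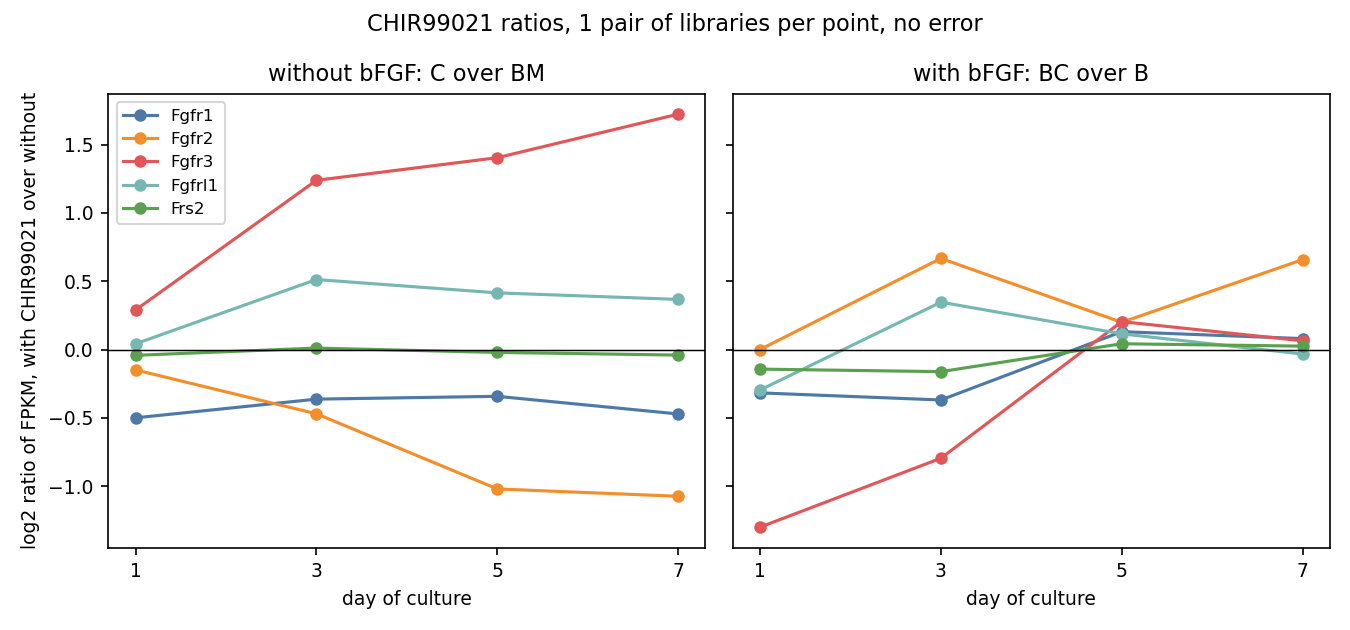
Log2 ratio of FPKM with CHIR99021 over without (vertical axis) against the day of culture, without bFGF (C over BM, left) and with bFGF (BC over B, right), with 1 pair of libraries per point and no error. Fgfr3 and Fgfr2 part in opposite directions on the left, where the FPKM ratio on day 7 is 3.3 for Fgfr3 and 0.475 for Fgfr2, and on the right the day 7 ratios are 1.05 and 1.58.

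Within the libraries with and without CHIR99021, the bFGF difference of Fgfr3 was -2.77 with CHIR99021 (SE 0.63, adjusted p = 0.0119) and -0.78 without it (SE 0.62, adjusted p = 0.298), and that of Fgfrl1 was -0.48 with (SE 0.14, adjusted p = 0.0250) and -0.12 without (SE 0.14, adjusted p = 0.475). With CHIR99021, 18% of genes were called lower. Fgfr2 was called lower without CHIR99021 (-0.80, SE 0.26, adjusted p = 0.0269), where 23% of genes were, and was at 0.19 with it (SE 0.26, adjusted p = 0.556). The Fgfr3 call was lost without C on day 5 or BC on day 7 (adjusted p = 0.0517 and 0.0532), the Fgfrl1 call without any of 5 libraries, and the Fgfr2 call without any of 6. The Fgfr3 difference without CHIR99021 was called under 1 of 24 alternatives, edgeR without day 1 (-1.41, adjusted p = 0.0399). With quantile-normalized limma, Fgfr2 without CHIR99021 was at -0.16 (adjusted p = 0.454). The counts behind these shares fell too, from 4561 genes called in either direction with CHIR99021 to 796 without C on day 5, and from 5456 without CHIR99021 to 2341 without BM on day 7.

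For the members under the filter, a fit without the filter gave values. Fgf13 passed for the interaction of bFGF with the day (adjusted p = 0.00408), where 48.6% of 18700 genes passed, and was higher with bFGF on day 7 by 0.95 (SE 0.31, adjusted p = 0.0151), where 25.6% of genes were called higher. By FPKM, B on day 7 was 1.35 times BM and BC 1.30 times C, which is less than the fitted change with TMM factors. No other scaling was run for Fgf13. The log2 fold change of Fgf13 was 1.03 on day 1 (SE 0.30, adjusted p = 0.0508), -0.69 on day 3 (SE 0.29, adjusted p = 0.0829) and -0.19 on day 5 (SE 0.31, adjusted p = 0.684). Over days 1 to 7, Fgf1, Fgf2, Fgf9 and Fgfr4 had adjusted p of 0.697, 0.776, 0.895 and 0.485 for bFGF, on counts too low to show any but large differences. On day 7 against day 1 with bFGF, Fgf1 was called higher (2.38, SE 0.88, adjusted p = 0.0321), where 4235 of 18700 genes were. Fgf1 had at most 10 expected counts in a library.

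The other genes of the pathway were described by lists, whose counts stand beside 34.6% of all genes tested called higher and 33.9% called lower with bFGF. In these lists, rose and fell mean higher and lower with bFGF than without it, and not a change in time. Of 18 other FGF ligands, 14 were listed and 3 passed the filter. Fgf7, a ligand of mesenchymal cells, rose with bFGF over days 1 to 7 by 1.22 (SE 0.20, adjusted p = 0.000381), at an FPKM of 4.4 to 14.01 without and 9.79 to 40.63 with bFGF. Fgf15, a ligand of the embryonic neural tube and retina, rose by 2.47 (SE 0.35, adjusted p = 0.000190), at 0.06 to 3.24 without and 0.7 to 7.06 with bFGF, and it passed the filter only through the libraries with bFGF. Fgf11, an intracellular FGF like Fgf13, fell by 1.24 (SE 0.22, adjusted p = 0.000653), at 0.81 to 10.99 without and 0.53 to 4.04 with.

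Of 7 co-receptors and FGF or FGFR binding proteins tested, 5 fell, 0 rose and 2 did not pass, where 33.9% of all genes fell and 34.6% rose, with a median log2 fold change of -0.52 beside -0.00233 for all genes tested. Flrt1 and Flrt3, membrane proteins that bind FGF receptors, were both lower. Flrt1 fell by 4.68 (SE 0.60, adjusted p = 0.000106) and Flrt3 fell by 1.86 (SE 0.25, adjusted p = 0.000135). Flrt1 passed the filter only through the libraries without bFGF, with a median FPKM of 3.56 against 0.075 with it. Of 3 intracellular FGFs and the sodium channel genes they bind that passed the filter, 2 fell, Fgf11 among them, and 1 rose, where 33.9% of all genes fell and 34.6% rose.

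Heparan sulfate, which FGFs need to bind their receptors, is carried by core proteins and shaped by enzymes. Among 11 core protein genes tested, 3 rose, 1 fell and 7 did not pass, beside the 34.6% and 33.9% of all genes, with a median of 0.07. Col18a1, a basement membrane core protein, rose by 1.90 (SE 0.33), Gpc1 rose by 0.54 (SE 0.20), and the syndecan Sdc3 fell by 1.09 (SE 0.25). Among 13 genes of heparan sulfate synthesis and editing, 3 rose, 8 fell and 2 did not pass, where 33.9% of all genes fell, with a median of -0.50. The sulfatase Sulf1, which removes sulfate groups from the chains outside the cell, fell by 1.64 (SE 0.24). Ndst3, which starts the sulfation of the chains, rose by 1.52 (SE 0.22). Sdc3 passed the filter only through the libraries without bFGF (median FPKM 2.34, against 0.83 with it), and Ndst3 only through those with bFGF (2.35, against 0.665 without).

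Of 27 docking and transduction genes, 7 rose, 8 fell and 12 did not pass, with a median of 0.03, so neither share was above that of all genes (34.6% higher, 33.9% lower). The PI3K subunit Pik3r1 fell by 1.98 (SE 0.33) and the docking protein Gab1 by 1.45 (SE 0.20), whereas the ERK kinase gene Map2k1 rose by 0.51 (SE 0.10). Of 13 feedback inhibitors and targets of FGF-ERK signalling, 9 rose, 1 fell and 3 did not pass, where 34.6% of all genes rose, with a median of 1.38. Dusp4, a phosphatase of ERK, rose by 3.68 (SE 0.43) and Etv4, a target transcription factor, by 3.38 (SE 0.37). The membrane inhibitor Il17rd fell by 0.75 (SE 0.13). CHIR99021 called 1 gene in all these lists, L1cam (-0.53, adjusted p = 0.0391).

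**Figure D5:**
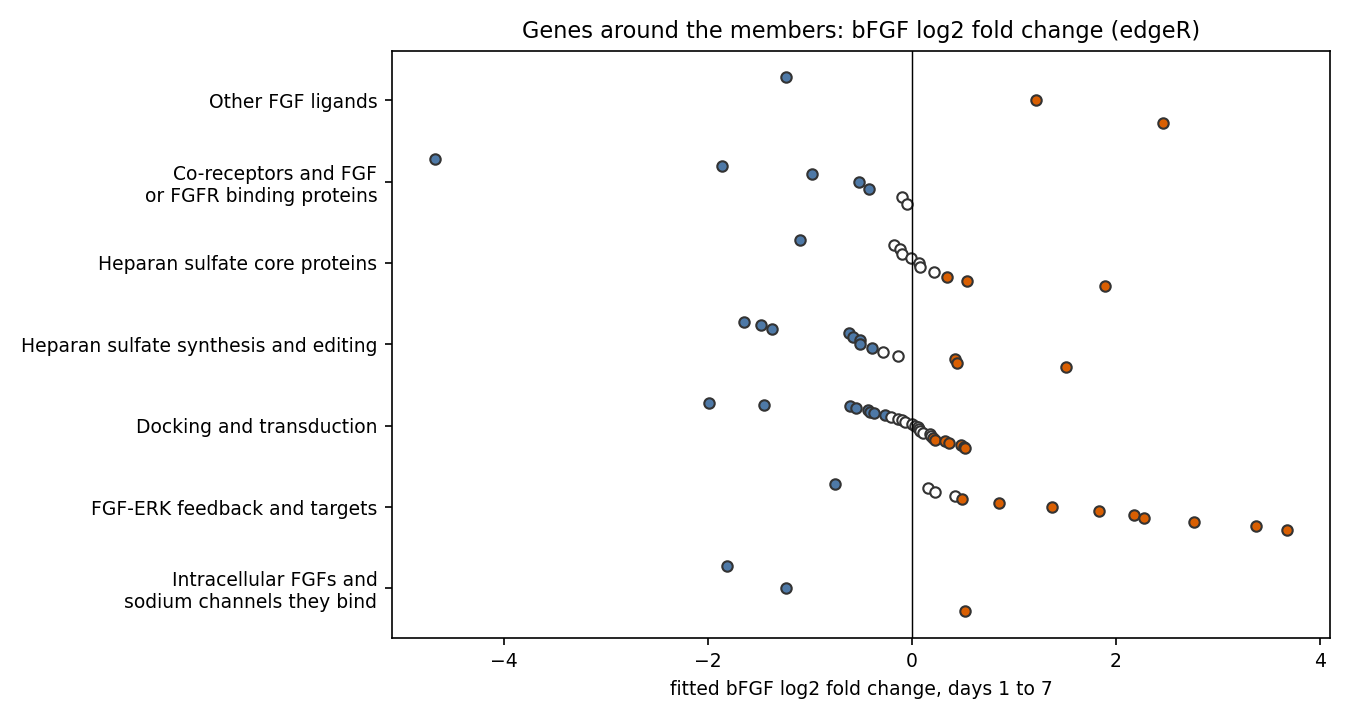
Fitted bFGF log2 fold change over days 1 to 7 (horizontal axis) of each gene tested in 7 lists around the 10 genes, as 1 point per gene, filled in orange where called higher and in blue where called lower at an adjusted p under 0.05, open otherwise. The feedback and target genes lie mostly to the right of 0, with 9 of 13 called higher, and the co-receptors to the left, with 5 of 7 called lower, where 34.6% of all genes tested were called higher and 33.9% lower.

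For each of the 5 tested genes, the genes most like it in pattern over the 17 libraries, whatever their level, were sought. The search covered 8865 genes whose FPKM averaged 5 or more, by Pearson's r of log2(FPKM + 1). It is a description over libraries that share days and media. Fgfr3 was nearest to Bfsp2 (r = 0.970), Slc38a3 (0.954) and Igfbp2 (0.950), and Bfsp2, a filament protein of the lens, ran from 0.07 to 34.92 without bFGF and from 0 to 0.07 with it. Fgfrl1 was nearest to Plbd2 (r = 0.983), with Slc27a1 (0.975) also among its 3 closest. Fgfr1 was nearest to Ypel4 (0.964), Dkk3 (0.962) and Col4a1 (0.957), a chain of basement membrane collagen. Frs2 was nearest to Dctn4 (0.963), Plekhf1 (0.951) and Plekhm1 (0.946), and Fgfr2 less closely to Fam110b (0.825), Ctxn1 (0.822) and Rnd2 (0.818).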

How the data were processed

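RNA of mNRPCs was sequenced on the BGISEQ-500. By their methods, the authors aligned reads with Bowtie 2 and derived FPKM from eXpress, while the submitters' processing notes list mm10, Bowtie2 and RSEM, with no versions given. For each gene and library the authors deposited an expected count, which need not be whole, and an FPKM, scaled by transcript length and library total. Genes absent from a library's table were set to 0 there.

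Counts were rounded before testing with edgeR 4.0.16 under R 4.3.3 (glmQLFit and glmQLFTest after TMM scaling). Genes entered the fit when their FPKM averaged 1 or more over the 16 cultured libraries, with a threshold of 0.05 on the adjusted p. Terms were the day, CHIR99021 and bFGF, then their interaction, and for values by day each day with and without bFGF. The SE is the size of the log2 fold change over the root of the F statistic. The common biological coefficient of variation was 24.7% in the additive model and 10.0% in the model by day. The contrasts within CHIR99021 and within its absence were chosen after the data were seen. With 1 library per treatment and day, a lone library left after leaving one out is assumed to vary like the others. On simulated data over 11272 genes, changes of 1 and of 2 on the log2 scale were recovered in 100% of cases for bFGF (5.66% of calls false), and in 29% and 99% for bFGF by day (3.76% false). The simulation changed 200 genes and gave none a day or CHIR99021 effect of its own. Its spread was smaller than that of the additive fit, so these rates need not hold for the real libraries.

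Alternatives were RLE size factors, library totals alone, no filter, a minimum FPKM of 5, DESeq2 1.42.0, limma 3.58.1 on log2(FPKM + 1), on log2(FPKM + 0.1) and after quantile normalization, leaving out day 1 or each library, and an exact permutation test that flips the signs of 8 pairs (two-sided). Genes named are the 10 members, in each pathway list the 2 largest rises and 2 largest falls among called genes, and the 3 genes most like each member. A few genes picked this way, or held in the marker lists, are not reported here. L1cam and Lum, and other marker genes printed, were named from their lists after their values were seen. The members and lists were chosen with earlier results of these data known. Promoter windows and positions are RefSeq's on GRCm38.p6, the build of mm10. Python 3.11.15, pandas 2.3.3 and matplotlib 3.10.9 were used.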

Additional observations from a re-analysis of the deposited data

Results flagged for a closer look

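The bFGF difference of Fgfr3 was not the same on all days: its log2 fold change on day 7 minus that on day 1 was -3.82 (edgeR, SE 1.03, adjusted p = 0.00584), and the test of bFGF by day passed. For Frs2 the same test passed, and the difference of day 7 minus day 1 was -0.25 (edgeR, SE 0.12, adjusted p = 0.0836), which by itself did not pass. The day 7 differences behind these values were the same in sign under every alternative run.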

How the results depend on the processing

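With 1 library per treatment and day, spread between cultures is not measured. bFGF called 3896 genes higher and 3817 lower, and with library totals alone 2245 higher and 5702 lower.

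Counts of genes that moved by over 1.5 times were those for CHIR99021 (38), which were 22 without the filter, 281 with DESeq2, 72 with quantile-normalized limma, 24 without day 1 and 0 by the exact sign-flip permutation test (3577 at an unadjusted p under 0.05), and 1 to 28 leaving out 1 library each. For bFGF by CHIR99021 (1), they were 0 with library totals alone, 5 with DESeq2, 0 with limma in each of its 3 forms, 2 without day 1, and 0 to 1 leaving out 1 library. For bFGF on day 1 (1203) they were 145 to 1784 leaving out 1 library, lowest without BC of that day. For bFGF with CHIR99021 (4561) they were 796 to 5585, with 796 to 1043 without C or BC of day 5 or 7, and for bFGF without CHIR99021 (5456) 2341 to 6324, with 2341 to 2486 without BM or B of day 5 or 7.

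Frs2 changed direction with bFGF on day 5, from 0.20 to -0.24 with library totals alone and to -0.23 and -0.24 with limma on log2(FPKM + 1) and log2(FPKM + 0.1), and on day 7 against day 1 with bFGF, from 0.01 to -0.43, -0.39 and -0.43. Each of these settings lacks TMM factors. Over all alternatives, Fgfr3 with bFGF over days 1 to 7 ran from -2.31 to -0.61, with adjusted p of 0.000559 to 0.0626, and Fgfrl1 from -0.59 to -0.27, with adjusted p of 0.00124 to 0.0592.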

Other observations

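The mean length of the Fgfr1 transcripts, which the deposited tables give per library in bases, was 4602 to 4744 in the 8 libraries without bFGF and 4163 to 4751 in the 8 with it, and 4767 on day 0. It was shorter with bFGF in 7 of 8 pairs (exact sign-flip permutation test, two-sided p = 0.0234, adjusted p = 0.136 over 8015 genes, among which 0 were called), so it did not pass. This was looked at after the data were seen.

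Fgf21, a hormone-like FGF under the filter, was at an FPKM of 0 to 0.86 without bFGF and 0.17 to 1.53 with it, and Fgfbp1, a carrier that releases FGFs from the matrix, was at 2.59 on day 0 and at 0.59 or less in all 16 cultured libraries. Neither was tested, and both were picked after their values were seen.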
